A study of Mus musculus with 5 samples.

Results

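Alveolar macrophages are the resident phagocytes of the airspace, where they take up surfactant, particles and dying cells and break them down in lysosomes. They are kept by GM-CSF and PPARγ signalling and, in mice, carry the lectin Siglec-F, the integrin CD11c and the scavenger receptor MARCO, which set them apart from interstitial macrophages and monocytes. Here 32 genes of these cells and their lysosomes were followed in libraries labelled as lung endothelial cells, out of 49315 genes in the count table and 18727 that were tested. Of these genes, 31 were found under the listed symbol, and Siglecf was found by its Ensembl identifier (ENSMUSG00000039013), which the deposited table names Siglec5. All 32 passed the filter on low counts. The genes were selected from knowledge of the cell type and on levels already seen in these libraries, in which myeloid transcripts were highest in WT replicate 2. Their levels by library and their differences between genotypes are therefore a description, and support nothing by themselves.

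The libraries came from lung endothelial cells of wild-type mice (WT, n = 3) and of mice whose endothelium had been made to lack TET2, a dioxygenase that oxidises methylated cytosine (TET2KO, n = 2), compared to ask what its loss does to these cells. Mice of both groups had been infused with angiotensin II, a vasoconstrictor peptide, for 28 days, and mice without the peptide were not analysed here. The driver of the knockout, the deleted exons, the isolation method, and the strain, age and sex of the mice were not given in the sources used here. Nor was it given whether each library came from its own animal, so that any error below rests on the variation between these libraries and may be technical in part.

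Total counts ran from 27346804 to 35440257 per library. Tet2 itself had 4018, 5142 and 4130 counts across WT, against 4608 and 5188 across TET2KO. This count covers the whole gene and all cells of the sample, and so does not check the labels. A further point bears on the labels. The log2 fold changes in the authors' deposited table matched, within 0.01, those computed with WT replicate 3 placed beside the TET2KO libraries in 99.98% of 18019 genes, and those computed from the labelled groups in 2.75%. The labelled groups are used below, and values without WT replicate 3 are given for the 32 genes as a group and plotted for each. Levels are given as CPM, counts relative to the library total after TMM scaling, in the order WT replicates 1, 2 and 3 and then TET2KO replicates 1 and 2. Levels of different genes are compared as deposited TPM values, which also allow for gene length.

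Taken as a sum, the 32 genes were abundant in every library. Their share of all counts was 1.72%, 5.91% and 0.656% for the 3 WT libraries in order of replicate, against 0.959% and 1.71% for the TET2KO libraries. WT replicate 2 held by far the most and WT replicate 3 the least, so that the WT libraries lay on both sides of the TET2KO libraries. Lyz2, which encodes the lysozyme of myeloid cells, ranked first of all genes by TPM in WT replicates 1 and 2 and in TET2KO replicate 2, 3rd in TET2KO replicate 1 and 10th in WT replicate 3. The libraries also held endothelial transcripts, as labelled: all 15 endothelial genes of a marker list were counted. The summed counts of the 32 genes were 4.68, 26.3 and 1.4 times those of these 15 genes across WT, against 1.48 and 2.65 times across TET2KO. In bulk RNA, fewer macrophages and less RNA per macrophage cannot be told apart.

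Library order was nearly the same for every gene. WT replicate 2 was the highest of the 5 libraries for 32 of 32 genes, against 35.0% of all genes tested, and at least 2-fold above each of the others for 29 of 32, against 6.02%. The exceptions to the latter were Siglecf, Fabp1 and Cidec. WT replicate 3 was the lowest for 31 of 32 genes, against 23.8% of all genes, and TET2KO replicate 1 was the lowest for Fabp1. TET2KO replicate 2 stood above TET2KO replicate 1 for all 32, against 49.3% of all genes. WT replicate 1 and TET2KO replicate 2 shared the middle: TET2KO replicate 2 was the higher for 18 genes (17 in one order of the 5 libraries and 1 in another) and WT replicate 1 for 14.

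**Figure D1:**
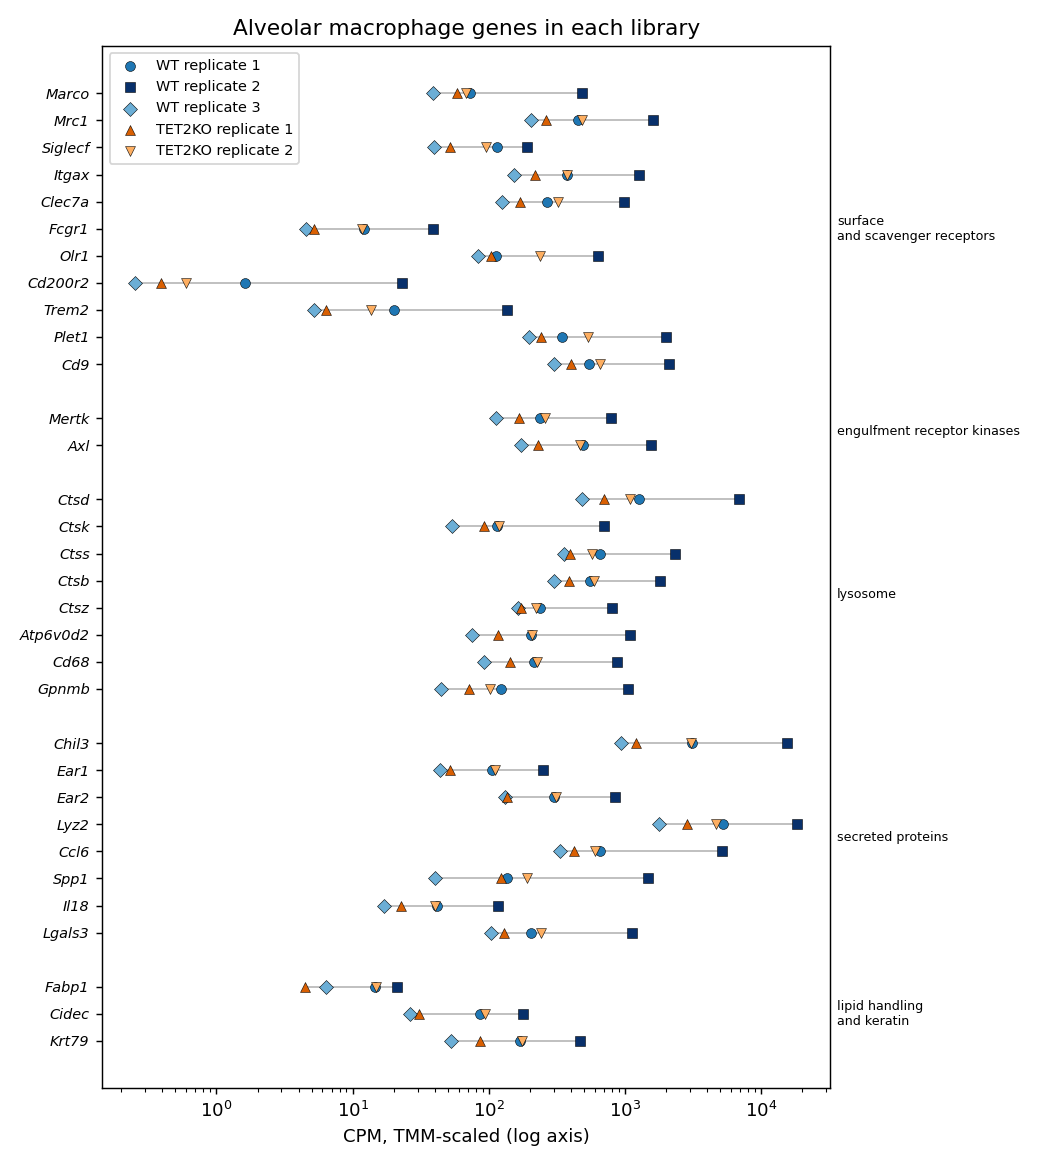
TMM-scaled CPM on a log axis for the 32 genes, grouped by role, with 1 point per library (WT in blue, TET2KO in orange) and a grey line from the lowest to the highest. WT replicate 2 is the right-most point in every row, and WT replicate 3 is the left-most in every row but that of Fabp1.

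Because of this order the genotype groups overlapped. Both TET2KO libraries lay below all WT libraries for 0 of 32 genes, against 12.4% of all genes tested, and above all WT libraries for 0 of 32, also against 12.4%. All 32 log2 fold changes (TET2KO relative to WT) were below 0, from -4.06 to -0.53 with a median of -1.09, while the median over all 18727 genes was -0.08. In edgeR (quasi-likelihood, p-values adjusted by Benjamini-Hochberg over all genes tested) 0 of the 32 passed an adjusted p of 0.05, their adjusted p running from 0.875 to 0.9, as did 0% of all genes tested, and 0 of the 32 had an unadjusted p under 0.05 against 1065 of all genes. DESeq2 called 60 genes (0.32%) but 0 of the 32. In DESeq2, 4 of the 32 had an unadjusted p under 0.05, against 1167 of all genes. limma-voom called 0 genes and 0 of the 32, with 1109 genes and 0 of the 32 at an unadjusted p under 0.05.

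With WT replicate 3, the lowest library for 31 of the 32, kept in WT, the direction rested on WT replicate 2. Without WT replicate 2, 26 genes were above 0 and 6 below, with a range from -0.86 to 0.88 and a median of 0.18. The 6 below 0 were Cd200r2 (-0.86), Trem2 (-0.29), Fabp1 (-0.07), Siglecf (-0.04), Ctss (-0.03) and Ctsz (-0.01). No fit left out both WT replicates 2 and 3, so the direction without either was not tested. WT replicate 1 lay above both TET2KO libraries for 14 of 32 genes, against 40.8% of all genes tested. For the rest it lay between the 2 TET2KO libraries. Without WT replicate 3 all 32 were below 0, with a median of -1.54, and edgeR again called 0 of the 32. In that fit 3 of the 32 had an unadjusted p under 0.05, against 1365 of all genes. In the authors' deposited table, whose fold changes place WT replicate 3 beside TET2KO, all 32 were below 0 with a median of -1.77, and 11 of the 32 had an adjusted p under 0.05, against 1.66% of its genes. Those 11 were Cd200r2, Trem2, Gpnmb, Ccl6, Ctsd, Marco, Chil3, Atp6v0d2, Ctss, Lyz2 and Ctsk.

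**Figure D2:**
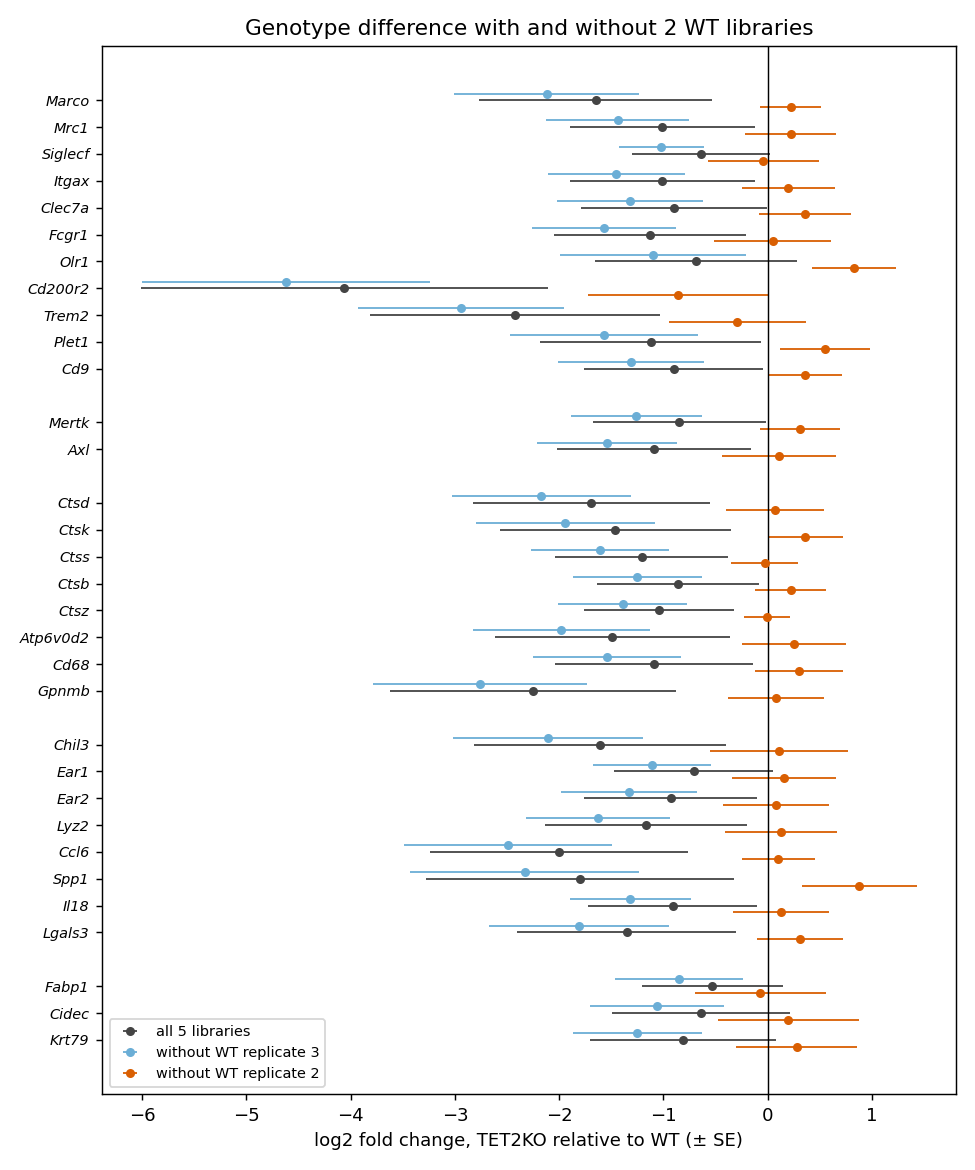
Log2 fold change of TET2KO relative to WT for each gene, with its standard error, from all 5 libraries (grey), without WT replicate 3 (light blue) and without WT replicate 2 (orange). All grey and light blue points lie below 0, and 26 of the 32 orange points lie above it.

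Among the surface and scavenger receptors, 11 genes in all, Cd9, a tetraspanin that is not particular to macrophages, had the highest mean TPM (1204). It was counted at 540, 2104 and 301 CPM in WT, against 401 and 652 in TET2KO, a log2 fold change of -0.90 (SE 0.86). Plet1, a surface glycoprotein, measured 345, 1984 and 198 CPM in the WT libraries against 243 and 531 in the TET2KO libraries. Clec7a, the β-glucan receptor Dectin-1, had 269, 978 and 125 CPM in the 3 WT libraries, compared with 168 and 323 for TET2KO. For these 3 genes TET2KO replicate 2 lay above WT replicate 1, and the groups overlapped.

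Itgax, which encodes the CD11c integrin chain used to identify these cells, measured 373, 1265 and 154 CPM in the WT libraries against 218 and 373 in the TET2KO libraries, so that WT replicate 1 and TET2KO replicate 2 had the same rounded level. Trem2, a lipid-sensing receptor of phagocytes, was low, with 20.1, 136 and 5.18 CPM for WT against 6.40 and 13.7 for TET2KO, with a log2 fold change of -2.42 (SE 1.39) and of -0.29 (SE 0.66) without WT replicate 2. Cd200r2, a member of the CD200 receptor family, was the lowest of the 32 by mean TPM (8.1). It had 46, 683 and 8 counts in WT and 13 and 19 counts in TET2KO. Its log2 fold change of -4.06 (SE 1.95) was the farthest from 0 of all, and rested on the 683 counts of WT replicate 2.

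The remaining receptors were Mrc1, the mannose receptor, Fcgr1, the high-affinity IgG receptor, Olr1, a receptor for oxidised LDL, Marco, which binds particles and bacteria, and Siglecf. Their log2 fold changes ran from -1.65 (Marco) to -0.64 (Siglecf), and without WT replicate 2 from -0.04 (Siglecf) to 0.83 (Olr1). Marco and Siglecf, both defining markers, differed in their steps between libraries. Marco had 72.3, 484 and 38.9 CPM in the 3 WT libraries, compared with 58.0 and 68.3 for TET2KO, a 6.69-fold step from WT replicate 1 to WT replicate 2. Siglecf measured 115, 189 and 39.7 CPM in the WT libraries against 51.5 and 95 in the TET2KO libraries, a step of 1.64-fold between the same 2 libraries.

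Mertk and Axl encode receptor tyrosine kinases of the TAM family, which bind apoptotic cells through the bridging proteins GAS6 and protein S. Mertk had 236, 791 and 112 CPM in the 3 WT libraries, compared with 165 and 257 for TET2KO, a log2 fold change of -0.85 (SE 0.83) that was 0.31 (SE 0.38) without WT replicate 2. Axl measured 490, 1559 and 172 CPM in the WT libraries against 229 and 466 in the TET2KO libraries, a log2 fold change of -1.09 (SE 0.93) that was 0.11 (SE 0.55) without WT replicate 2. The 2 kinases had steps of 3.35-fold and 3.18-fold from WT replicate 1 to WT replicate 2, near the median of 3.62 over the 32 genes.

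The lysosomal group held 5 cathepsins, which are proteases, with Atp6v0d2, a subunit of the proton pump that acidifies the organelle, Cd68, a glycoprotein of the lysosomal membrane, and Gpnmb, a transmembrane glycoprotein of phagocytes. Together these 8 made up 0.351%, 1.3% and 0.16% of the WT libraries, against 0.22% and 0.332% of the TET2KO libraries. Ctsd, the aspartic protease cathepsin D, had 1266, 6904 and 486 CPM in the 3 WT libraries, compared with 697 and 1092 for TET2KO. Its log2 fold change was -1.69 (SE 1.14), and 0.07 (SE 0.47) without WT replicate 2.

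The promoter of Ctsd is shown because TCACGTG, the core of the element through which TFEB and related factors switch on lysosomal genes, was found there in a search of both strands. It was found in no other of the 30 members with a promoter in the RefSeq table (GRCm38.p6, 250 bases before to 50 after each start), and in 3.77% of all 32851 promoters. Capitals mark the matches. The proximal one, TCACGTGA, holds the motif on both strands and begins 99 bases before the start site, and the distal one, CACGTGA, holds it on the opposite strand and begins 245 bases before. Both stretches are on the minus strand of chromosome 7, at chr7:142387859-142387986 and chr7:142388006-142388077.
Ctsd, proximal: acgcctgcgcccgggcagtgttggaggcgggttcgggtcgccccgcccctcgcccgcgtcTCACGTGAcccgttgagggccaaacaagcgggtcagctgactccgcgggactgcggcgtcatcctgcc
Ctsd, distal: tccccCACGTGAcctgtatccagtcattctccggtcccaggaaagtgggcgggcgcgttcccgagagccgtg
The shorter CACGTG, contained in these matches, was likewise found in Ctsd alone among the members, and in 7.15% of all promoters.

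Ctss, the cysteine protease cathepsin S of antigen-presenting cells, measured 649, 2327 and 356 CPM in the WT libraries against 395 and 566 in the TET2KO libraries. Ctsz, cathepsin Z, had the narrowest fold range of the group, with 237, 806 and 164 CPM against 171 and 220. For both genes the 2 TET2KO libraries fell between WT replicates 3 and 1. Cd68 had 215, 873 and 92.3 CPM in the 3 WT libraries, compared with 143 and 227 for TET2KO. Gpnmb measured 123, 1056 and 44.3 CPM in the WT libraries against 70.9 and 101 in the TET2KO libraries, with a log2 fold change of -2.25 (SE 1.37) that was 0.08 (SE 0.46) without WT replicate 2. The other 3 were Ctsk, the collagen-degrading cathepsin K, Ctsb, cathepsin B, and Atp6v0d2, with log2 fold changes of -1.46, -0.86 and -1.49, and of 0.36, 0.22 and 0.25 without WT replicate 2.

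The secreted group took the most counts, 1.02%, 3.57% and 0.341% of the WT libraries against 0.523% and 0.975% of the TET2KO libraries. Lyz2 (chr10:117277331-117282321, minus strand, GRCm38) had 5254, 18211 and 1761 CPM in the 3 WT libraries, compared with 2841 and 4621 for TET2KO, a log2 fold change of -1.17 (SE 0.97) that was 0.13 (SE 0.54) without WT replicate 2. Chil3 (chr3:106147554-106167564, minus strand), the chitinase-like protein Ym1, measured 3117, 15519 and 933 CPM in the WT libraries against 1208 and 3051 in the TET2KO libraries. The 2 genes together made up 2.82% of the counts of WT replicate 2 and 0.274% of those of WT replicate 3. Ccl6, a CC chemokine of myeloid cells, had 650, 5169 and 330 CPM in the 3 WT libraries, compared with 420 and 601 for TET2KO, a log2 fold change of -2.0 (SE 1.24) that was 0.10 (SE 0.35) without WT replicate 2.

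Spp1, which encodes osteopontin, a secreted adhesive phosphoprotein, measured 135, 1466 and 39.9 CPM in the WT libraries against 123 and 191 in the TET2KO libraries. Its log2 fold change was -1.80 (SE 1.48), and 0.88 (SE 0.55) without WT replicate 2, the highest of the 32 in that fit. Its promoter is shown because GAGGAAGT, a sequence of the kind bound by PU.1, the macrophage transcription factor, was found in 2 of the 30 members, Spp1 and Ctss, and in 3.2% of all promoters. In Ctss the match ran over the start site and is not printed. The stretch lies at chr5:104434938-104435065 (GRCm38.p6, plus strand), and capitals mark the match, which starts 113 bases before the start.
Spp1: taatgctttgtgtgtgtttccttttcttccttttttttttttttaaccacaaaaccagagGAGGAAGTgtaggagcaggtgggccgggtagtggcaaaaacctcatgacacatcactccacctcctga
A direct repeat of AGGTCA spaced by 1 base, the form bound by PPARγ with RXR, was found in 0 member promoters and in 0.0396% of all promoters. TGAGTCA, the form bound by AP-1, was found in 5 members (Cd68, Cidec, Gpnmb, Itgax and Olr1) and in 5.2% of all promoters.

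Ear1 and Ear2 encode eosinophil-associated ribonucleases, which mouse alveolar macrophages also make. Ear2 had 302, 845 and 132 CPM in the 3 WT libraries, compared with 136 and 312 for TET2KO, and Ear1 had 106, 251 and 43.5 CPM against 51.9 and 111. They come from a family of similar genes. Of all stretches of 150 bases in their transcripts, the read length, 6.32% in Ear2 were shared with Ear10. In Ear1, 5.67% were shared with Ear-ps9, a pseudogene of the family whose exons overlap those of Ear1 on the same strand. The counts of Ear1 and Ear2 could thus be split between genes in part. Shared stretches also made up 28.1% of Ctsd, with the overlapping gene model Gm49369, and 10.8% of Ctsb, whose exons overlap Fdft1 on the opposite strand. Both are overlaps of gene models, and the strand setting used to count reads there was not given. The group's remaining genes were Il18, which encodes a cytokine of the interleukin-1 family, and Lgals3, the lectin galectin-3, with log2 fold changes of -0.91 and -1.35, and of 0.13 and 0.31 without WT replicate 2.

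Fabp1, a fatty acid binding protein, Cidec, which encodes a lipid droplet protein, and Krt79, a keratin found in these macrophages, formed the role group with the smallest median step from WT replicate 1 to WT replicate 2, 2.09-fold. Fabp1 measured 14.6, 21.1 and 6.41 CPM in the WT libraries against 4.50 and 14.9 in the TET2KO libraries, the smallest log2 fold change of the 32 at -0.53 (SE 0.68). Cidec had 85.3, 179 and 26.2 CPM in the 3 WT libraries, compared with 30.9 and 93.0 for TET2KO. Krt79 measured 168, 465 and 52.8 CPM in the WT libraries against 85.4 and 176 in the TET2KO libraries. For these 3 genes the step between the 2 TET2KO libraries (3.32-fold, 3.01-fold and 2.06-fold) was above the median of 1.78 over the 32.

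The high library was thus not a uniform multiple of the next. The step from WT replicate 1 to WT replicate 2 ran from 1.45-fold (Fabp1) to 14.3-fold (Cd200r2), with 14 genes above 4-fold and 7 below 3-fold. It was 10.8-fold for Spp1, 8.61-fold for Gpnmb, 7.96-fold for Ccl6 and 6.77-fold for Trem2, and 2.37-fold for Ear1, 2.09-fold for Cidec and 1.64-fold for Siglecf. Per 100 counts of Cd68 in the same library, which needs no scaling between libraries, Gpnmb had 57.0, 121 and 48.0 counts across WT, against 49.7 and 44.5 across TET2KO. Spp1 had 63.0, 168 and 43.2 in WT and 86.4 and 84.1 in TET2KO. Siglecf had 53.5, 21.6 and 43.0 in WT and 36.1 and 41.9 in TET2KO. Lyz2 varied least of these 4, with 2443, 2086 and 1907 in WT and 1993 and 2038 in TET2KO. On this measure WT replicate 2 was the highest library for Gpnmb and Spp1 and the lowest for Siglecf. The TET2KO libraries lay within the WT range for Spp1, Siglecf and Lyz2, and for Gpnmb TET2KO replicate 2 lay just below it.

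**Figure D3:**
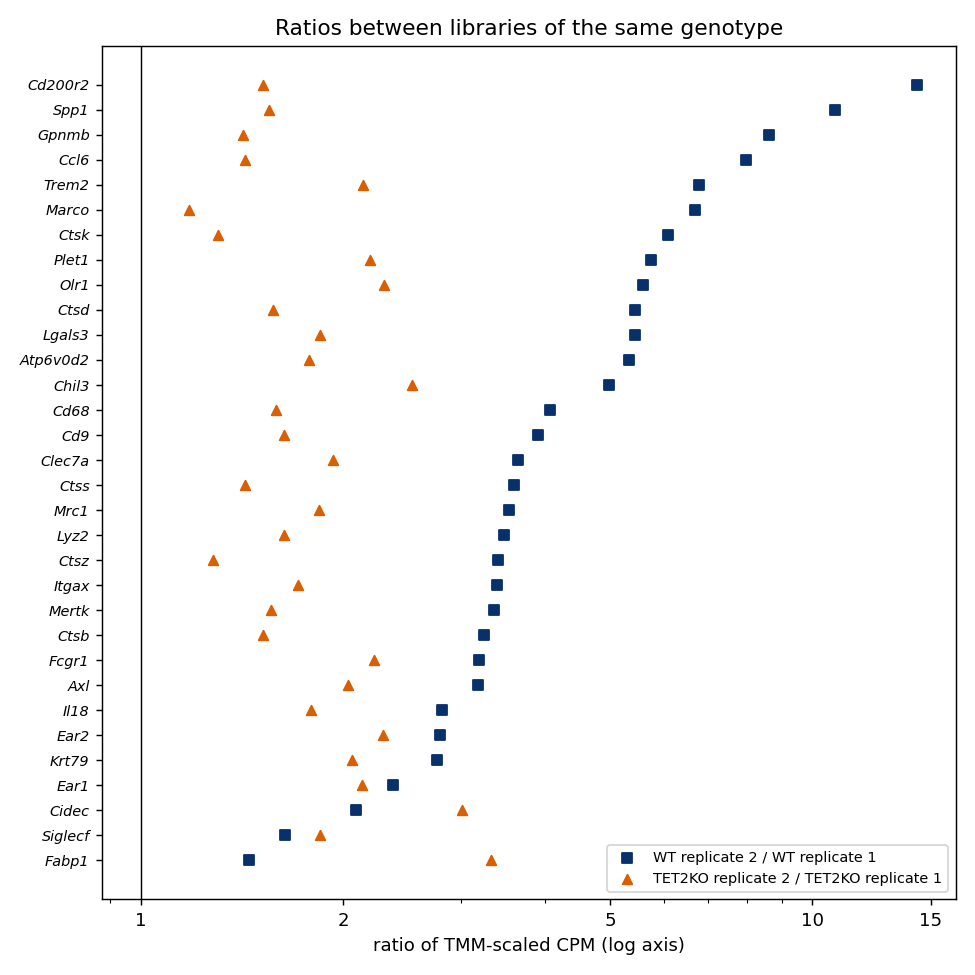
Ratio of TMM-scaled CPM between libraries of the same genotype, on a log axis, with the genes ordered by the ratio of WT replicate 2 to WT replicate 1 (blue squares). Blue squares run from 1.45 (Fabp1) to 14.3 (Cd200r2), and the ratios of TET2KO replicate 2 to TET2KO replicate 1 (orange triangles) from 1.18 (Marco) to 3.32 (Fabp1).

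Genes of the same pathways that are not among the 32 were mostly highest in WT replicate 2 as well, with fold changes nearer 0 in the median. Of 22 other alveolar macrophage genes, 20 were highest in WT replicate 2, against 35.0% of all genes, and their median log2 fold change was -0.76 (0.32 without WT replicate 2). Fabp5, a fatty acid binding protein, had 43.7, 493 and 19.2 CPM in the 3 WT libraries, compared with 40.5 and 50.4 for TET2KO. Pparg, which encodes the transcription factor these cells depend on, measured 60.1, 165 and 26.6 CPM in the WT libraries against 33.3 and 64.0 in the TET2KO libraries. The exceptions of this list were Cpne5 and Cd2, the latter also a T cell gene, with 227, 218 and 238 CPM against 166 and 151, where both TET2KO libraries were below all WT libraries.

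All 30 genes of the list for lysosomal hydrolases and membrane proteins, and all 16 V-ATPase subunits, were highest in WT replicate 2. The medians were -0.64 and -0.63, and 0.07 and -0.01 without that library. Psap, the precursor of the saposins, which help to degrade sphingolipids, had 2462, 10004 and 1358 CPM in the 3 WT libraries, compared with 1647 and 2202 for TET2KO. Cd63, a tetraspanin of late endosomes, measured 59.6, 478 and 25.8 CPM in the WT libraries against 37.8 and 57.5 in the TET2KO libraries. Atp6v0d1, the widely expressed counterpart of Atp6v0d2, had 103, 235 and 101 CPM in the 3 WT libraries, compared with 84.3 and 93.8 for TET2KO, a step from WT replicate 1 to WT replicate 2 of 2.30-fold, against 5.33-fold for Atp6v0d2. Of 15 genes for the MiT/TFE factors and their control on the lysosome, 14 were highest in WT replicate 2, with a median of -0.42 (0.02 without it). Tfec, the family member most restricted to macrophages, measured 26.5, 104 and 12.0 CPM in the WT libraries against 17.8 and 31.5 in the TET2KO libraries.

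Among 20 macrophage transcription factors and growth factor receptors, 16 were highest in WT replicate 2 and the median was -0.58 (0.21 without it). Csf2ra, the GM-CSF receptor α chain, had 284, 772 and 127 CPM in the 3 WT libraries, compared with 202 and 288 for TET2KO. Klf4, which endothelium also expresses, measured 729, 943 and 795 CPM in the WT libraries against 913 and 1043 in the TET2KO libraries. Of 17 genes for lipid uptake, storage and efflux, which share members with the lists above, 14 were highest in WT replicate 2, with a median of -0.81 (0.12 without it). Plin2, a coat protein of lipid droplets, had 329, 1435 and 141 CPM in the 3 WT libraries, compared with 178 and 403 for TET2KO, while Apoe, an apolipoprotein that many cell types make, measured 459, 212 and 249 CPM in the WT libraries against 274 and 386 in the TET2KO libraries. The ligands and partners of engulfment showed the pattern least, with 9 of 15 highest in WT replicate 2 and a median of -0.08 (0.19 without it). Gas6, the ligand of Mertk and Axl, had 23.7, 18.8 and 21.2 CPM against 33.4 and 48.9, both TET2KO libraries above all WT libraries. Its log2 fold change of 0.95 (SE 0.22) did not pass edgeR's test (adjusted p = 0.778). In all 7 lists 0 genes passed edgeR's adjusted threshold in either direction.

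The level of each list was taken as its mean log2 CPM relative to the mean of the 5 libraries. The 32 genes lay at 0.01, 2.06 and -1.26 across WT, against -0.83 and 0.02 across TET2KO. The 13 marker lists of other cell types lay between -1.28 (platelets) and 0.0 (neutrophils) in WT replicate 2. Interstitial macrophage genes lay at -0.05, -0.37 and -0.47 in WT and at 0.18 and 0.71 in TET2KO, with 8 of 12 lowest in WT replicate 2. C1qa, a complement component typical of these cells, had 21.6, 10.8 and 13.2 CPM in the 3 WT libraries, compared with 25.4 and 34.0 for TET2KO. Cd14, of the same list, was highest in WT replicate 2, with 142, 512 and 105 CPM against 124 and 226. Monocyte genes lay at -0.40 in WT replicate 2, with 8 of 11 lowest there, and dendritic cell genes at -0.50, with 7 of 11 lowest there. The share of all genes that were lowest in WT replicate 2 was not computed. The counts of genes lowest there, here and for the lists below, are therefore given without a background.

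The endothelial list lay at -0.35, -0.65 and 0.03 in WT and at 0.47 and 0.51 in TET2KO, with 0 of 15 genes highest and 10 of 15 lowest in WT replicate 2. Its summed level ran from 2688 to 4611 CPM over the WT libraries and from 6078 to 6120 CPM over the TET2KO libraries, where that of the 32 genes ran from 6457 to 70689 CPM and from 9038 to 16084 CPM. B cell genes were lowest in WT replicate 2 for 9 of 10 (-1.10) and T and NK cell genes for 11 of 12 (-0.83), with summed levels of 1784 and 228 CPM there and of at least 2789 and 376 CPM in the other 4 libraries. Some lists were not lowest there. Neutrophil genes lay at 0.08, 0.0 and -0.38 across WT, against 0.13 and 0.16 across TET2KO. Airway epithelial genes lay at -0.66, -0.01 and -0.41 against -0.10 and 1.18, so that WT replicate 2 was the highest WT library, with 7 of 9 genes above WT replicate 1, and TET2KO replicate 2 the highest of all. Scgb1a1, the club cell secretory protein, had 249, 475 and 232 CPM against 377 and 986.

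The remaining lists lay in WT replicate 2 at -1.01 (eosinophils, mast cells and basophils), -0.58 (mesothelium), -0.21 (alveolar type 1 and type 2 cells) and -0.14 (fibroblasts, pericytes and smooth muscle). The summed level of the mesothelial list was nevertheless highest there, at 430 CPM, of which Krt19, a keratin of several epithelia, made up 416 CPM. No marker of any list was at 0 in all libraries. Shares of counts sum to a fixed total in each library, and the part of each of these cell types in the levels of the 32 genes was not tested.

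**Figure D4:**
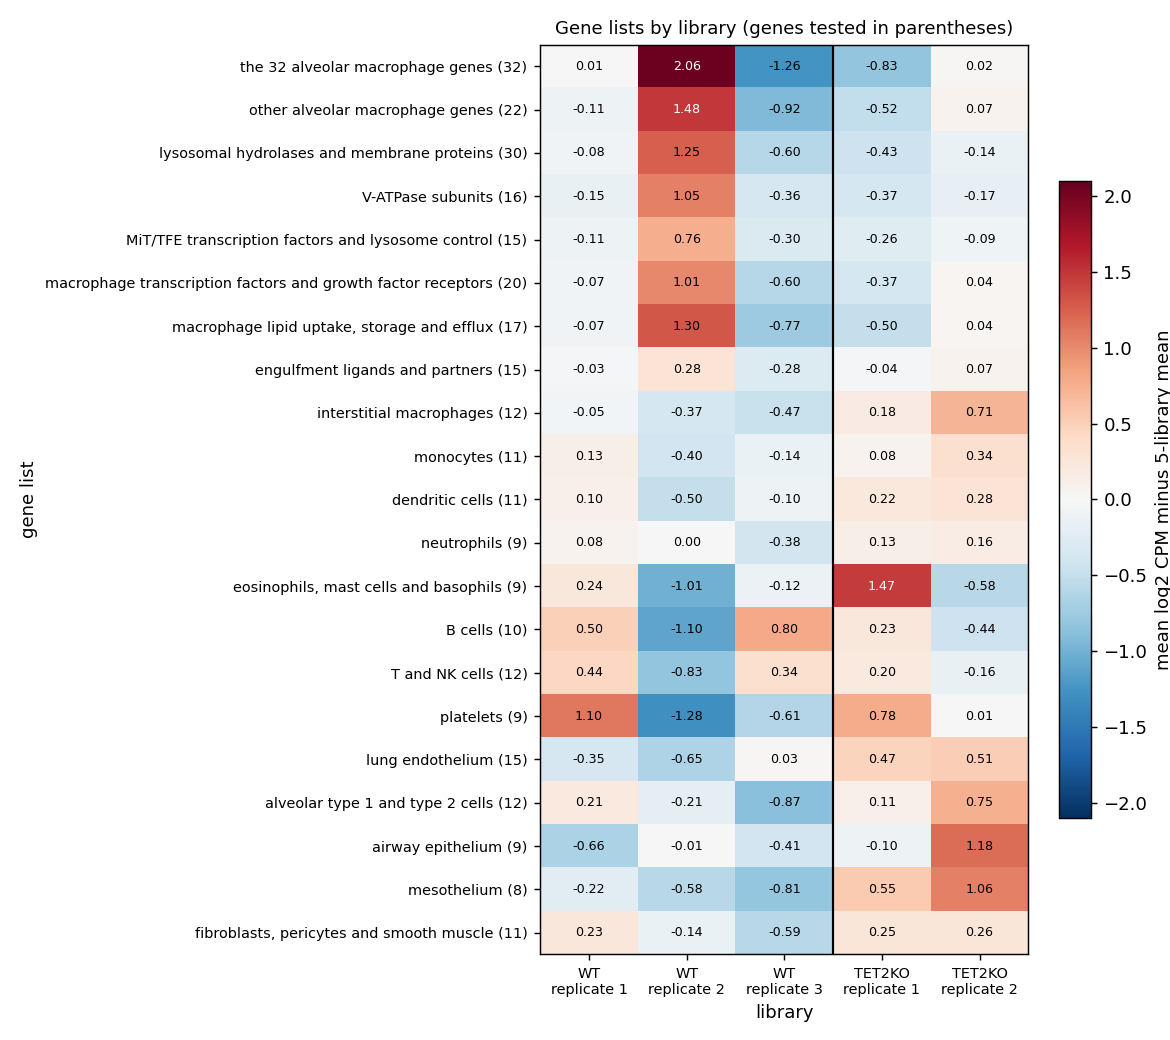
Mean log2 CPM of each gene list relative to the mean of the 5 libraries, with WT libraries to the left of the black line and TET2KO libraries to the right, and the number of genes tested in parentheses. The 32 genes and the lists for other alveolar macrophage genes and lysosomes are highest in WT replicate 2 (2.06, 1.48 and 1.25), where the lists for B cells, T and NK cells, platelets and endothelium are lowest.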

How the data were processed

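Poly(A) RNA of 5 libraries was sequenced as paired reads of 150 bases, per the labels' protocols. The authors deposited raw counts per gene, made with Trimmomatic 0.36, STAR 2.5.2b and featureCounts of Subread 1.5.2 on GRCm38, per the submitters' processing notes. Strand and multi-mapping settings were not given in the sources used here. The authors also deposited TPM values, and a DESeq2 table with a log2 fold change, a p-value and a size-factor-scaled count signal per gene. Its fold changes were recomputed from that signal under both groupings.

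Counts were tested in R 4.3.3 with edgeR 4.0.16 (TMM, filterByExpr, quasi-likelihood test, Benjamini-Hochberg adjustment, threshold 0.05). DESeq2 1.42.0, limma 3.58.1 and other scalings, filters and left-out libraries were alternatives. The scripts were tested on simulated data. The 174 genes with no symbol stayed in the tests. Total counts ran from 27346804 to 35440257 per library.

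The 32 genes and all lists were chosen with earlier results of these data known. Values per library are printed for whole role groups of at most 5 genes, and otherwise for the 4 genes highest by TPM and the 2 with the largest absolute fold change. Of other lists, genes were named from the same ranks. Marco, Siglecf, Ear1 and Pparg were added after their values were seen, as were the genes given per 100 counts of Cd68. Loci come from GENCODE M21 and promoters from RefSeq (GRCm38.p6).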

Additional observations from a re-analysis of the deposited data

How the results depend on the processing

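The number of genes called was 0 in edgeR and 60 with DESeq2, and 0 under every other alternative run. Of the 32 genes, 32 had a log2 fold change below 0, and from 6 to 32 did when each library was left out in turn, with 6 when WT replicate 2 was left out. With TPM values the number was 31 (Olr1 at 0.01). Both TET2KO libraries lay below all WT libraries for 0 of the 32, and for 0 to 13 when each library was left out in turn. The 13 came without WT replicate 3, where fewer WT libraries had to lie above, and 1 came without TET2KO replicate 2. The share over all genes was not computed for these left-out fits. The 13 and the 1 therefore have no background and show nothing particular to the 32. The median log2 fold change of -1.09 ran from -1.64 to 0.18 when each library was left out, and from -1.08 to -0.39 over the other scalings, filters and tools. Scaling by library totals moved the median of all genes by 0.14 and TPM values by 0.21 to 0.24. Relative to all genes the 32 had a median of -1.02, and of -0.90 with library totals. It was -0.52 to -0.56 with TPM values and -0.57 with limma-voom on TMM-scaled counts, so the smaller value was not particular to TPM. The share of all genes below 0 was 58.4%, but 41.5% with library totals and 28.2% with log2(TPM + 1). With the replicate block in edgeR the number of genes called was 0 and the median of the 32 was -1.28. In that fit 2914 genes, 31 of the 32 among them, had an unadjusted p under 0.05. WT replicate 3 is alone in its block and gives no information on genotype there. The values of that fit thus rest on replicates 1 and 2 of each genotype. Same-numbered libraries shared only a number, with correlations of their deviations from the group mean across genes of 0.22 and 0.493 over only 2 pairs. The deviations of the 2 TET2KO libraries are equal and opposite for every gene, so the 2 correlations are not independent. Precision was limited by the 3 and 2 libraries per group, with WT replicates 2 and 3 8.63-fold apart in the median of the 32 genes. Depth was lowest for Cd200r2, which had 8 to 46 counts in 4 of the 5 libraries.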

Other observations

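Of 137 genes tested on the 13 marker lists of other cell types, 8 were highest in WT replicate 2 and at least 2-fold above WT replicate 1. This rule was set after the values were seen, and no test was made. The share of all genes that met it was not computed. A stricter rule, WT replicate 2 at least 2-fold above each of the other 4 libraries, was met by 6.02% of all genes tested. The 8 of 137 therefore show nothing particular to these markers. The step was 12.5-fold for Pdpn, a surface glycoprotein on the list of alveolar type 1 and type 2 cells, which had 5.64, 70.6 and 7.30 CPM in WT replicates 1, 2 and 3, compared with 8.0 and 11.8 CPM in TET2KO replicates 1 and 2. By contrast Sftpc, the surfactant protein C gene on the same list, was lower in WT replicate 2 than in WT replicate 1, with 429, 151 and 101 CPM compared with 283 and 431 CPM. The step was 6.04-fold for Cspg4, on the pericyte list, which had 2.94, 17.8 and 1.33 CPM compared with 3.62 and 2.72 CPM. Of the 11 genes tested on that list, 1 was highest in WT replicate 2 and 3 were lowest there. On the neutrophil list the step was 6.02-fold for S100a8, with 4.20, 25.3 and 3.62 CPM compared with 4.10 and 10.9 CPM, and 3.36-fold for Mmp8. Of the 9 genes tested on this list, 3 were highest in WT replicate 2 and 4 were lowest there. S100a9 was among the lowest, with 6.16, 4.15 and 8.16 CPM compared with 7.91 and 21.2 CPM. On the interstitial macrophage list, where 8 of 12 genes were lowest in WT replicate 2, the step was 4.01-fold for Ms4a7 and 3.61-fold for Cd14. Krt19 on the mesothelial list had 146, 416 and 46.8 CPM compared with 61.1 and 196 CPM, a step of 2.84-fold, and Ccl17 on the dendritic cell list had a step of 2.66-fold at levels of at most 1.96 CPM.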
